A study of Mus musculus with 6 samples.

Results

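TRIM (tripartite motif) proteins are a large family of ubiquitin ligases. Most carry a RING finger that binds a ubiquitin-loaded E2 enzyme, a B-box and a coiled coil through which they pair up, and a variable C-terminal domain that picks the substrate. Many are induced by interferon, and in myeloid cells members of the family restrict retroviruses, switch RNA and DNA sensing on or off, or silence chromatin. The family was taken here as all protein-coding genes of the deposited table whose symbol is Trim followed by a number, with 68 members among 54532 genes. Of these, 43 had a mean of at least 10 counts over the 6 libraries, and all of these but Trim34b (42 genes) passed the low-count filter of the test.

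The libraries came from cultured mouse dendritic cells, 3 from untreated cells (control) and 3 from cells treated with DB2313, a small molecule that the study uses as an inhibitor of the transcription factor Spi1 (PU.1). The strain, age and sex of the mice, the dose and the exposure time are not in the labels. The labels named dendritic cells while the methods of the study name macrophages, and the table named the treated columns after Spi1 rather than the compound, so directions of change hold only if those columns are the DB2313 libraries. Nothing in the labels says whether replicates came from separate cultures, so p-values measure only the spread between these libraries, which may be technical.

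Total counts were 16146743 to 19764677 per library. All members together took 0.204% to 0.208% of the control counts and 0.212% to 0.227% of the DB2313 counts. Of 10 dendritic cell markers 9 were measured above the filter, and Cd209a was near 0. All 8 neutrophil, 6 mast cell or basophil and 6 T cell markers also passed the filter, as did 7 of 8 macrophage markers. Passing it therefore does not tell which cells were in the cultures. Of the pairs of libraries within a group, DB2313 replicates 1 and 3 differed most. The deviation of each library from the mean of all 6 was related to gene length, with Spearman coefficients over the tested genes of -0.32 in DB2313 replicate 1, -0.14 in DB2313 replicate 2, 0.18 in DB2313 replicate 3 and -0.02 to 0.21 in the control libraries.

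Promoter sequences were examined first, because interferon-induced genes often carry an interferon-stimulated response element (ISRE), the site bound by interferon regulatory factors, near their start, and because PU.1 can bind a composite site with such factors. RefSeq promoters (GRCm38.p6, 250 bases before to 50 after the start) were found for 53 of the 68 members. The core of the ISRE was searched as GAAA, any 2 bases, GAAA on either strand, and it was found in 9 of the 53 members (17%), against 3.99% of all genes with a promoter. A composite of a PU.1-type and an interferon-factor site (GGAA, any 2 bases, GAAA) can overlap it and was found in 15.1% of members and 3.16% of all genes. The PU.1 core GAGGAAG was found in 18.9% and 15.4%, and the STAT site (TTC, any 3 bases, GAA) in 11.3% and 9.55%. Such matches describe letters, not binding.

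Of the 9 members with an ISRE core, 6 belong to a single cluster on chromosome 7 and are copies of each other in part, so they are not independent examples. Their windows are printed with that of Trim21 to show how alike neighbouring genes are at this site. Differences in change between these genes were not tested. Each is 30 bases, 5′ to 3′ on the strand of the gene, with the ISRE core in capitals (on the reverse strand it reads TTTC, 2 bases, TTTC).
Trim12a: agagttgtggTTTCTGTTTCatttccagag
Trim5: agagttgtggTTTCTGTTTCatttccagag
Trim12c: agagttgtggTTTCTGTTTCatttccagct
Trim34a: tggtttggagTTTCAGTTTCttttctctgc
Trim30a: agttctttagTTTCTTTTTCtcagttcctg
Trim30d: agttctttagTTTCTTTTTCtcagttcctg
Trim21: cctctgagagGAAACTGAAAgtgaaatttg
These windows lie at chr7:104315466-104315495 for Trim12a, chr7:104288136-104288165 for Trim5, chr7:104353359-104353388 for Trim12c, chr7:104244457-104244486 for Trim34a (plus strand), chr7:104465210-104465239 for Trim30a, chr7:104507871-104507900 for Trim30d and chr7:102565450-102565479 for Trim21, all on the minus strand but for Trim34a. The Trim5 window was identical to that of Trim12a over 30 of 30 bases, and the Trim12c window over 28 of 30. The core began 11 bases after the annotated start in Trim12a and Trim34a and 14 bases after it in Trim21, where a second core, overlapping the first, began 20 bases after the start within the same window. In Trim5, Trim12c, Trim30a and Trim30d it began 49, 29, 36 and 41 bases before the start. The composite overlapped the ISRE core in Trim5, Trim12a and Trim12c. Trim25 had no ISRE core but had the composite across its start, at chr11:88999389-88999418 on the plus strand, with the match in capitals:
Trim25: tcctgttcagTTTCGATTCCttcctcgctg
The remaining members with an ISRE core were Trim2 and Trim26.

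The question of which genes DB2313 changed was then put to the family. At an adjusted p under 0.05, Trim12a, Trim37, Trim21, Trim33 and Trim25 were higher with DB2313, and Trim29 and Trim36 were lower. These 7 genes were 16.7% of the 42 members tested, beside 10.6% of all 14174 genes tested. The 5 higher members were 11.9% (4.66% of all genes) and the 2 lower members were 4.76% (5.94% of all genes). Between control and DB2313 there was no overlap of the libraries in CPM (counts scaled to a common library total, with TMM factors) for 12 members, 28.6% of those tested, beside 27.4% of all genes, so by this measure the family was near the background. Of these 12, DB2313 was above control for 9 and below for 3, and besides the 7 called genes they were Trim5, Trim13, Trim16, Trim34a and Trim7, of which Trim16 and Trim7 are named because of their values. Before adjustment, p was under 0.05 for 11 members and for 3309 genes in all. In these bulk libraries, fewer cells of a type and less RNA per cell cannot be told apart.

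**Figure D1:**
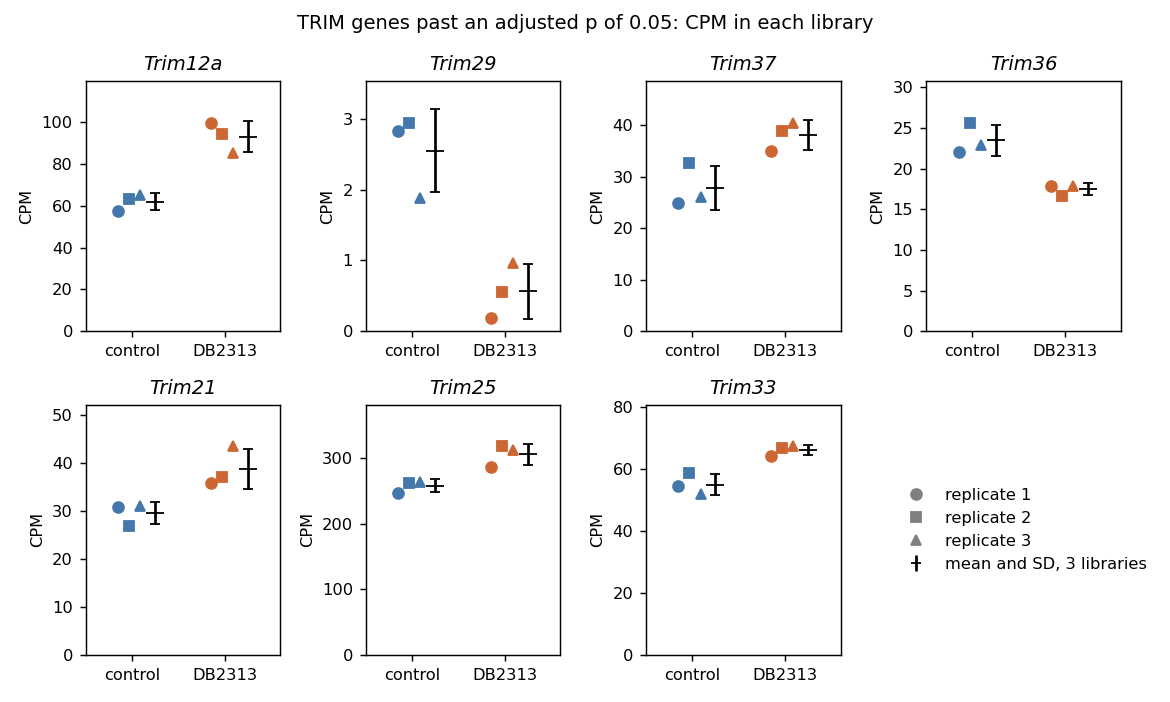
CPM (vertical axes, from 0) of the 7 TRIM genes with an adjusted p under 0.05 in the 3 control (blue) and 3 DB2313 (orange) libraries, with symbols for replicates 1 to 3 and the mean and SD of each group beside them. For each gene the groups do not overlap, and the gap is widest relative to the level for Trim29, which lies at 2.95 CPM or less.

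Changes within the family were small. The log2 fold change was under 0.5 in size for 40 of 42 members (95.2%, beside 86.9% of all genes) and at least 1 for 1 member, Trim29. It was above 0 for 25 members (59.5%, beside 50.1% of all genes). The median over the members was 0.04, while that over all tested genes was 8.2e-04. For the 43 members with a mean of at least 10 counts, the median log2 difference from the control mean was taken in each DB2313 library. It was -0.037, 0.071 and 0.109 in replicates 1, 2 and 3 (SD 0.076). The 0.04 thus lies within the spread between libraries.

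**Figure D2:**
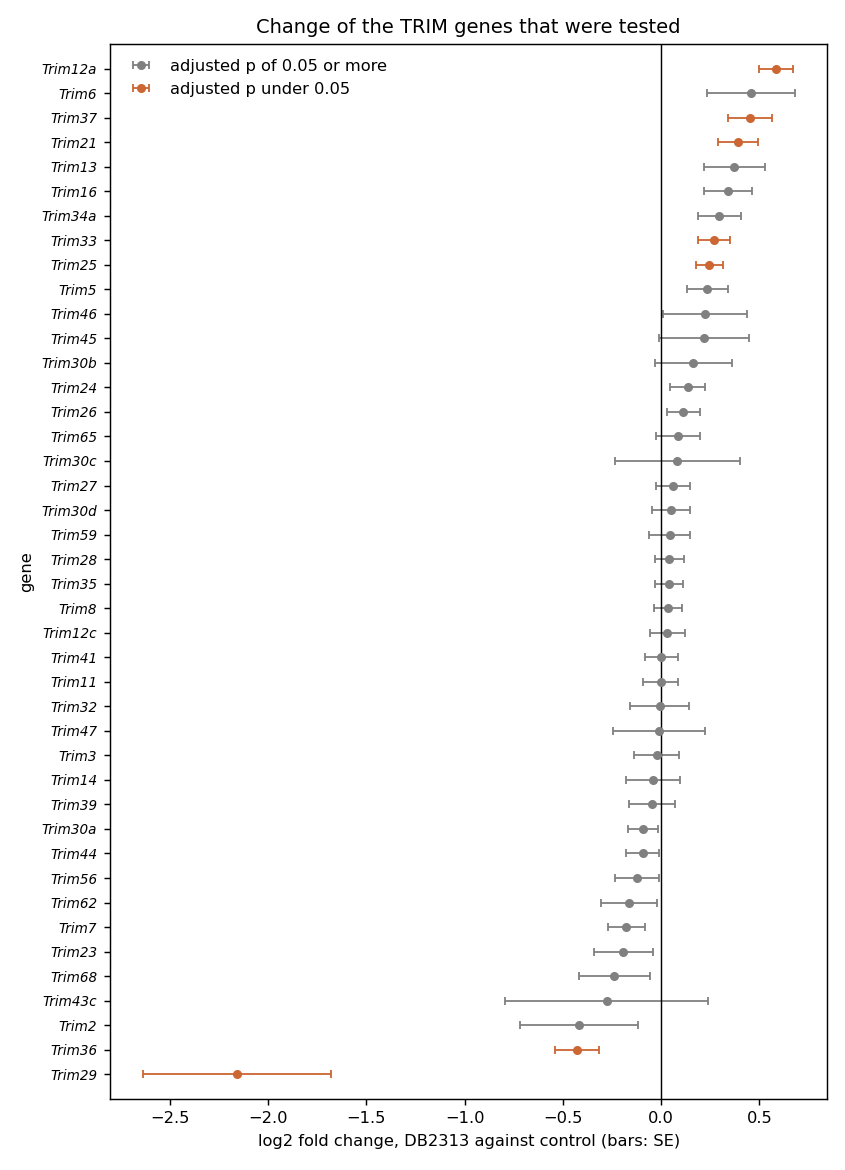
Log2 fold change of DB2313 against control (horizontal axis, bars are the SE of the edgeR fit) for the 42 tested TRIM genes, ordered by value, with the 7 genes past an adjusted p of 0.05 in orange. Values run from 0.59 for Trim12a to -2.16 for Trim29, and most genes lie within 0.5 of 0.

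The cluster on chromosome 7 (GRCm38, 104218793 to 104507849, 289057 bp) holds mouse relatives of TRIM5, which binds the capsid of incoming retroviruses. Its 10 members lie in the order Trim6, Trim34a, Trim5, Trim12a, Trim34b, Trim12c, Trim30b, Trim30c, Trim30a and Trim30d. Whether each of these mouse genes restricts retroviruses was not examined here. Of the 9 tested, 1 was called, Trim12a, 3 lay above control without overlap, and the median log2 fold change was 0.16. Over all genes tested, the background for this and the groups of members below, 10.6% were called and 27.4% did not overlap. These counts do not set the cluster apart. Trim12a (ENSMUSG00000066258, chromosome 7, 104299894 to 104315466, minus strand) was at 57.5, 63.3 and 65.5 CPM in the control libraries and at 99.9, 94.5 and 85.1 CPM with DB2313. All DB2313 libraries lay above all control libraries. The mean rose from 62.1 ± 4.13 to 93.2 ± 7.46 CPM (SD, n = 3 each), which was 0.59 ± 0.09 (SE) on the log2 scale (edgeR adjusted p = 4.3e-04).

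Trim12c, the neighbouring copy, was at 95.1, 78.2 and 78.4 CPM in control and 89.9, 82.1 and 85.3 CPM with DB2313, so the groups overlapped (log2 fold change 0.03 ± 0.09 SE, edgeR adjusted p = 0.879). The ratio of Trim12a to Trim12c counts was 0.605 to 0.835 in control and 0.998 to 1.15 with DB2313. The transcripts of Trim12a match those of Trim12c over 981 bp at 96.5% identity and those of Trim5 over 953 bp at 97.0%, and how reads with several matches were counted was not stated, so the split of reads among these genes is uncertain. With the counts of Trim12a and Trim12c summed, the log2 fold change was 0.29 ± 0.07 (SE), with an edgeR adjusted p of 0.0156.

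Trim5 was at 23.4, 25.7 and 22.0 CPM in control and at 26.6, 30.6 and 26.5 CPM with DB2313. The groups did not overlap, but the difference did not pass the test (log2 fold change 0.24 ± 0.11 SE, edgeR adjusted p = 0.194). Trim34a, another close relative of TRIM5, was at 25.5, 22.6 and 24.6 CPM in control and at 25.9, 32.5 and 30.8 CPM with DB2313. Its groups lay barely apart (0.30 ± 0.11 SE, edgeR adjusted p = 0.104). Trim34b had 8, 4 and 7 counts in control and 57, 11 and 26 with DB2313, with the highest count in replicate 1. It was too low to be tested with the filter used, and its transcript matches Trim34a over 1827 bp at 98.7% identity. The antisense gene Gm47248 also covers 609 bp of Trim34a exons, and strandedness was not given in the sources used here. Summing Trim34a and Trim34b gave a log2 fold change of 0.36 ± 0.10 (SE, edgeR adjusted p = 0.0301).

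The Trim30 genes did not pass the test. Trim30a, which dampens Toll-like receptor signalling by degrading the TAB adaptors of the kinase TAK1, was at 115.2, 111.8 and 115.5 CPM in control and at 98.6, 107.4 and 115.2 CPM with DB2313 (log2 fold change -0.09 ± 0.08 SE, edgeR adjusted p = 0.522). Its upstream neighbour Trim30d was at 40.9 ± 1.76 and 42.4 ± 4.66 CPM (SD, n = 3 each), Trim30b at 8.61 ± 1.74 and 9.65 ± 2.33, and Trim30c at 3.36 ± 0.38 and 3.56 ± 1.67. Trim30c was at 1.94 CPM in DB2313 replicate 1 and 5.29 CPM in DB2313 replicate 3, on either side of all control libraries. Trim6, which makes free ubiquitin chains that activate the kinase IKK epsilon, was at 5.60 ± 1.46 CPM in control and 7.71 ± 1.64 with DB2313 (0.46 ± 0.22 SE, edgeR adjusted p = 0.237).

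**Figure D3:**
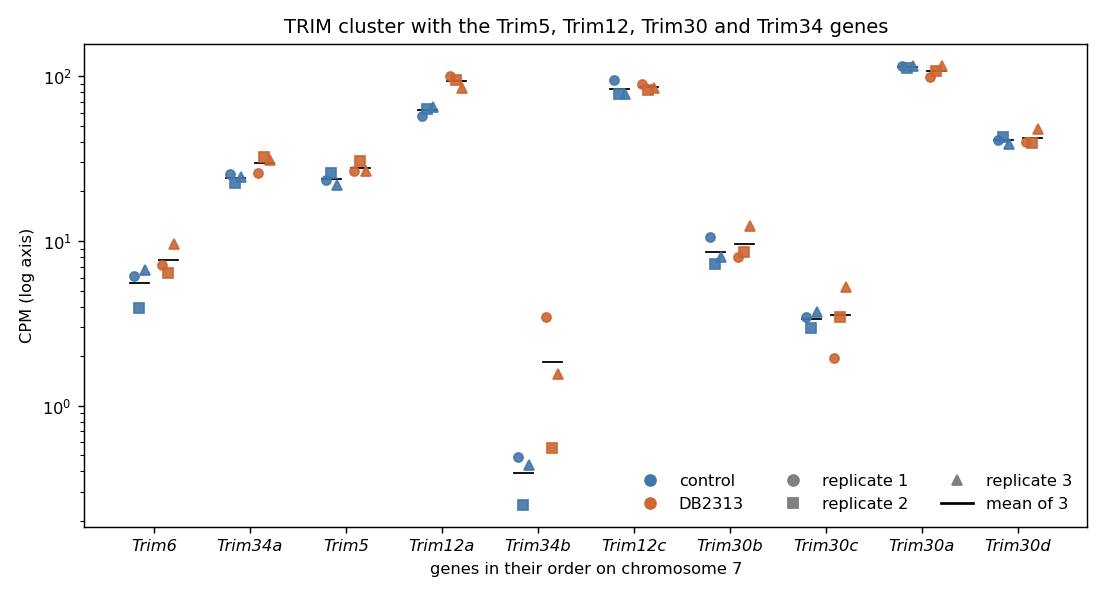
CPM (vertical log axis) of the 10 TRIM genes of the chromosome 7 cluster in their genomic order, in each control (blue) and DB2313 (orange) library, with bars for the mean of 3. Trim12a is the member whose groups are separated by the widest gap, from 65.5 to 85.1 CPM, Trim12c and the Trim30 genes overlap, and Trim34b spreads from 0.552 to 3.46 CPM within DB2313.

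Of 21 members listed for sensing and signalling, 18 were tested. Of these, 2 were called higher and 1 lower, and the median log2 fold change was 0.02. Trim25 (ENSMUSG00000000275, chromosome 11, 88999376 to 89020293, plus strand), which attaches ubiquitin chains to the RNA sensor RIG-I, had the highest CPM of the family. It was at 246, 262 and 264 CPM in control and at 287, 317 and 311 CPM with DB2313. The mean rose from 257 ± 9.71 to 305 ± 16.2 CPM (SD, n = 3 each), which was 0.25 ± 0.07 (SE) on the log2 scale (edgeR adjusted p = 0.0324). The edgeR adjusted p was 0.158, 0.0922 and 0.0932 without control replicates 1, 2 and 3, 0.200 without DB2313 replicate 2, and 0.0909 with a replicate block.

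Trim21 (ENSMUSG00000030966, chromosome 7, 102557921 to 102565486, minus strand), the cytosolic antibody receptor that sends antibody-coated viruses to the proteasome, was at 30.8, 26.8 and 31.0 CPM in control and at 35.8, 37.1 and 43.4 CPM with DB2313. Every DB2313 library lay above every control library. The mean rose from 29.5 ± 2.34 to 38.8 ± 4.11 CPM (SD, n = 3 each; log2 fold change 0.39 ± 0.10 SE, edgeR adjusted p = 0.0243). The adjusted p was 0.0639, 0.124 and 0.0563 without control replicates 1, 2 and 3, and 0.0674 without DB2313 replicate 2.

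Trim29 (ENSMUSG00000032013, chromosome 9, 43310848 to 43336115, plus strand) is known in macrophages and dendritic cells as a brake on the type I interferon response. It had 46, 47 and 30 counts in control and 3, 11 and 16 with DB2313. This corresponds to 2.83, 2.95 and 1.88 CPM against 0.182, 0.552 and 0.961 CPM, with the lowest value in DB2313 replicate 1. It fell from 2.55 ± 0.58 to 0.565 ± 0.390 CPM (SD, n = 3 each), a log2 fold change of -2.16 ± 0.48 (SE) with an edgeR adjusted p of 0.00863. The adjusted p was 0.0526 without control replicate 1 and 0.0539 without control replicate 2. Trim29 was thus the member with the largest fitted change of the 42 and the lowest count of the 7 that were called.

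Other regulators of nucleic acid sensing did not pass the test. Trim13, an endoplasmic reticulum protein that restrains the RNA sensor MDA5, was at 7.87, 9.72 and 8.15 CPM in control and at 10.1, 12.3 and 10.8 CPM with DB2313, without overlap (0.37 ± 0.15 SE, edgeR adjusted p = 0.155). It shares 1230 bp at 95.9% identity with Gm9359. Trim65, which modifies MDA5, was at 19.4 ± 0.96 CPM in control and 20.5 ± 1.91 with DB2313 (0.09 ± 0.11 SE). Trim14, an adaptor at the mitochondrial protein MAVS, was at 46.5, 45.6 and 42.3 CPM in control and at 32.1, 45.04 and 53.6 CPM with DB2313, so that DB2313 libraries lay below and above all control libraries. Its exons overlap those of Nans on the other strand over 1356 bp. Trim56, which promotes the DNA-sensing adaptor STING, showed the same order, with 59.1, 63.2 and 57.1 CPM in control and 44.6, 56.6 and 63.7 with DB2313. Trim32, which also acts on STING, was at 10.6 ± 0.69 and 10.5 ± 1.41 CPM (SD, n = 3 each).

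Members that act on signalling kinases and transcription factors were nearly level between the groups. Trim8, a regulator of NF-kB and cytokine signalling, was at 108 ± 4.40 CPM in control and 111 ± 1.12 with DB2313 (0.04 ± 0.07 SE). Trim35, which acts on the interferon factor IRF7, was at 237, 262 and 251.2 CPM in control and 253, 271 and 247 with DB2313 (0.04 ± 0.07 SE). Trim26, which targets IRF3 in the nucleus, was at 65.4 ± 4.54 and 70.8 ± 4.49 CPM (0.11 ± 0.08 SE), Trim27, an inhibitor of IKK kinases, at 89.5 ± 4.48 and 93.3 ± 10.7 CPM (0.06 ± 0.09 SE), and the membrane protein Trim59 at 25.0 ± 1.02 and 25.7 ± 2.67 CPM (0.04 ± 0.11 SE). The edgeR adjusted p of these 5 genes was 0.470 or more. A p above the threshold does not show that levels were equal.

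The TIF1 group, Trim24, Trim28, Trim33 and Trim66, carries a PHD finger and bromodomain and acts on chromatin. Of the 3 tested, 1 was called higher. Trim33 (ENSMUSG00000033014, chromosome 3, 103279293 to 103358775, plus strand), a ligase for SMAD4 that is also known to bind near PU.1 in macrophages, was at 54.5, 58.7 and 51.9 CPM in control and at 64.4, 67.0 and 67.4 CPM with DB2313. It rose from 55.0 ± 3.45 to 66.2 ± 1.64 CPM (SD, n = 3 each; log2 fold change 0.27 ± 0.08 SE, edgeR adjusted p = 0.0460). This was the call nearest to the threshold, and the adjusted p was 0.149, 0.0635 and 0.192 without control replicates 1, 2 and 3, 0.175 without DB2313 replicate 2, 0.104 with a replicate block and 0.0512 without a filter on low counts. Trim28, the corepressor of KRAB zinc finger proteins that silences retroelements, was at 225, 242 and 234 CPM in control and 255, 247 and 219 with DB2313 (0.04 ± 0.07 SE, edgeR adjusted p = 0.799). Trim24 was at 55.2 ± 0.85 and 60.6 ± 6.11 CPM (0.13 ± 0.09 SE, edgeR adjusted p = 0.399). Trim66 had 0 to 4 counts per library.

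Among 7 members best known from neurons and development 5 were tested, of which 1 was called in each direction. Trim37 (ENSMUSG00000018548, chromosome 11, 87127077 to 87220683, plus strand), a MATH-domain ligase of centrosomes and peroxisomes, was at 24.8, 32.6 and 26.0 CPM in control and at 34.9, 38.8 and 40.5 CPM with DB2313. It rose from 27.8 ± 4.19 to 38.1 ± 2.87 CPM (SD, n = 3 each; log2 fold change 0.45 ± 0.11 SE, edgeR adjusted p = 0.0172). The adjusted p was 0.106 and 0.0890 without control replicates 1 and 3 and 0.0832 without DB2313 replicate 2. Trim36 (ENSMUSG00000033949), which has a COS box that binds microtubules, was at 22.0, 25.7 and 22.9 CPM in control and at 17.9, 16.6 and 17.9 CPM with DB2313. It fell from 23.5 ± 1.90 to 17.5 ± 0.73 CPM (SD, n = 3 each; log2 fold change -0.43 ± 0.11 SE, edgeR adjusted p = 0.0205). The adjusted p was 0.124 and 0.0601 without control replicates 2 and 3 and 0.113 without DB2313 replicate 2.

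The other 15 tested members had log2 fold changes from -0.42 to 0.34, with edgeR adjusted p-values of 0.0959 to 0.993. They were Trim11, Trim44, Trim41, Trim3, Trim7, Trim39, Trim23, Trim16, Trim62, Trim68, Trim47, Trim46, Trim45, Trim2 and Trim43c. Of 26 members that were not tested, 7 had no count in any library (Trim40, Trim42, Trim50, Trim52, Trim60, Trim61 and Trim75). Another 10 had 1 to 10 counts in all, and 9 had more. A list of 5 members held the MuRF genes Trim63, Trim55 and Trim54, known from muscle, with Trim72 and Trim50. Of these 5, 0 were tested, and their sum was at most 0.601 CPM in any library. Of 11 members best known from erythroid and germ cells 1 was tested, Trim43c, with 4 to 16 counts per library.

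Levels between members were compared per length, as CPM per kb of the gene length in the deposited table. In control, the highest level per length was that of Trim28 with 56.2 ± 2.02 CPM per kb (SD, n = 3), followed by Trim35 with 54.1 ± 2.66. These neighbours in the order did not differ beyond their spread. Trim25 followed with 44.7 ± 1.69, Trim8 with 33.5 ± 1.36, Trim30a with 27.8 ± 0.51 and Trim12c with 22.4 ± 2.58. With DB2313, Trim25 was at 53.0 ± 2.82 CPM per kb, within the spread of Trim35 (55.6 ± 2.74). Its SD range overlapped that of Trim28 (57.8 ± 4.55). Trim12a moved from 10.7 ± 0.71 to 16.1 ± 1.29 CPM per kb.

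**Figure D4:**
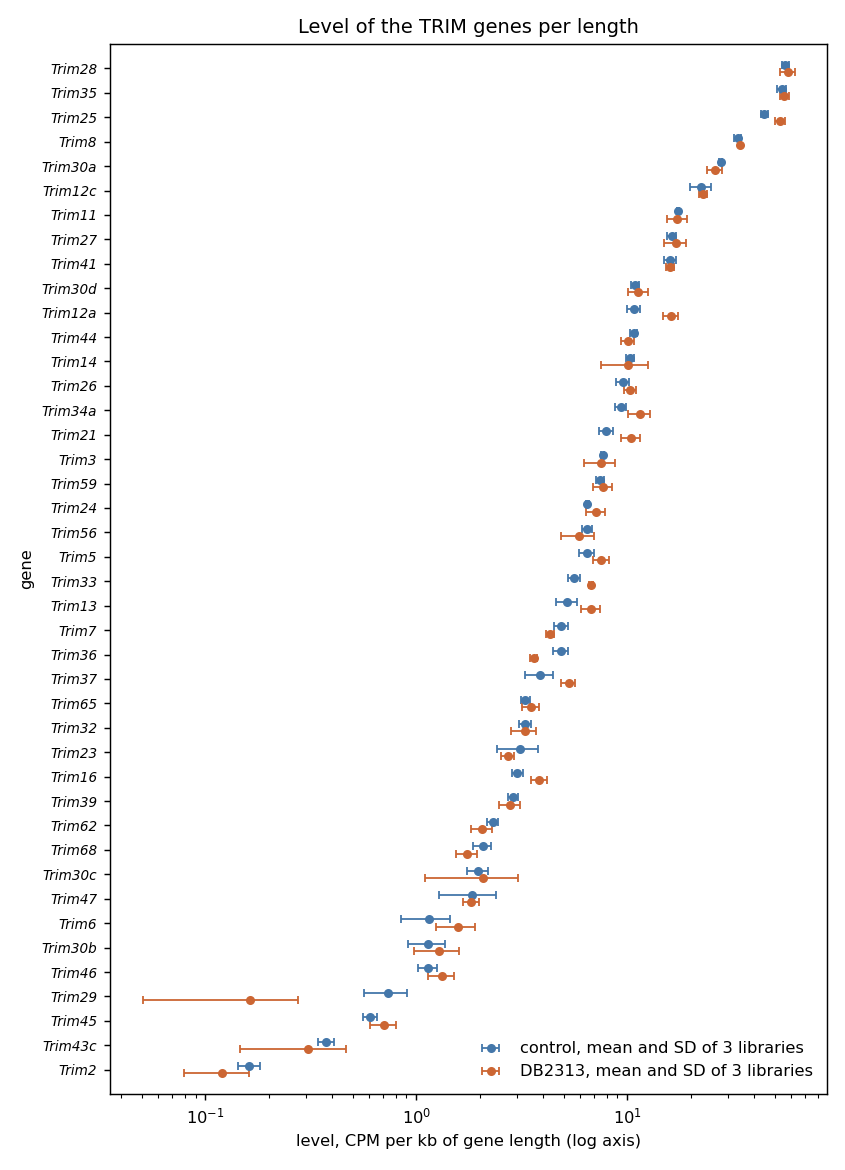
Level of the 42 tested TRIM genes in CPM per kb of gene length (horizontal log axis), as the mean and SD of 3 control (blue) and 3 DB2313 (orange) libraries, ordered by the control level. The control levels run from 56.2 CPM per kb for Trim28 to 0.162 for Trim2, and for most genes the bars of both groups overlap.

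The DB2313 libraries differed more among themselves than the control libraries did. The SD was larger in DB2313 than in control for 31 of 42 members (73.8%, beside 59.3% of all tested genes). DB2313 replicate 1 was the lowest of the 3 for 26 members (61.9%, beside 38.0% of all genes), as it was for Trim14, Trim56, Trim30a and Trim30c. DB2313 replicate 3 was the highest for 21 members (50%, beside 38.4%). The part that the trend with gene length has in this order was not tested gene by gene, but with an offset for length in the fit the same 7 members were called.

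Alternative scalings and tests left the calls of the family in place, while leaving out single libraries did not. The same 7 members were called with DESeq2 size factors, with scaling by library totals, with DESeq2, with limma-voom, and with the length offset alone or with a replicate block, while the block alone kept 5 of them. Without control replicate 1 the called members were Trim12a and Trim36, without control replicate 2 they were Trim12a and Trim37, and without control replicate 3 they were Trim12a and Trim29. Without DB2313 replicate 2, Trim12a, Trim29 and Trim34b were called, whereas without DB2313 replicate 3 all 7 were called and without DB2313 replicate 1 Trim34a was added to the 7. Trim12a was past the threshold in all 16 alternatives run for it, with a log2 fold change of 0.29 to 0.65. Among these was the sum of Trim12a and Trim12c counts, which gave the 0.29 and is not a value of Trim12a alone. With single libraries left out, Trim12a was at 0.53 to 0.65.

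**Figure D5:**
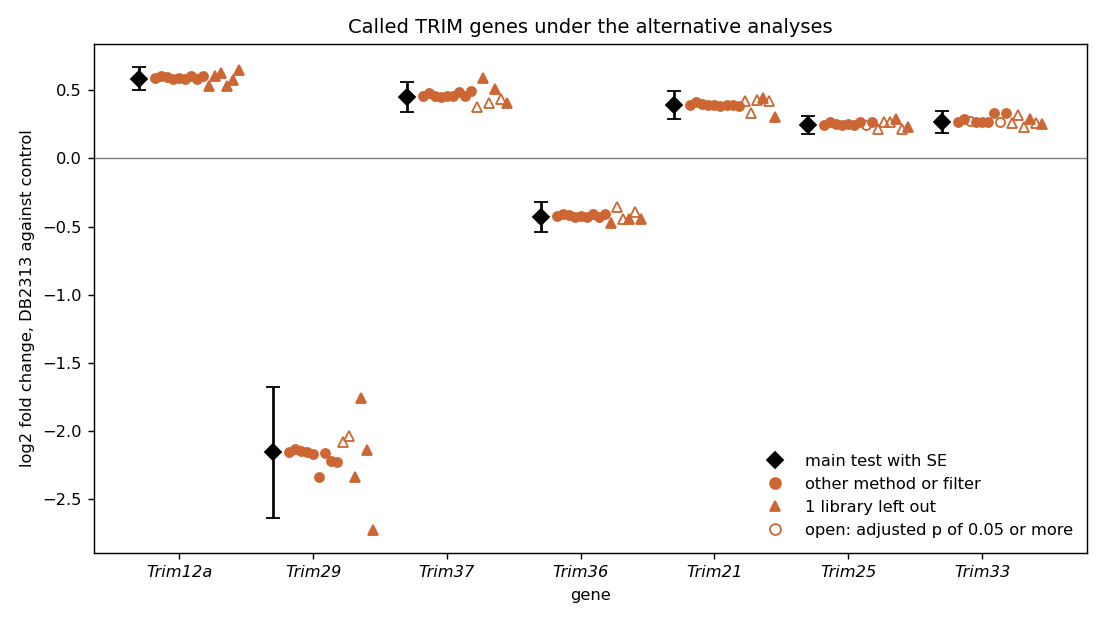
Log2 fold change (vertical axis) of the 7 called TRIM genes in the main edgeR test (black, with SE), under other methods or filters (circles) and with 1 library left out (triangles), with open symbols where the adjusted p was 0.05 or more. No value changes sign, and only Trim12a has no open symbol.

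The 9 members with an ISRE core in the promoter were read beside their values. Of these, 2 were called, Trim12a and Trim21, both higher, and the median log2 fold change was 0.11. The share called was 16.7% over all members tested and 10.6% over all genes tested. Trim5 had the same window as Trim12a and did not pass the test, with log2 fold changes of 0.24 for Trim5 and 0.59 for Trim12a. Trim12c, with 28 of 30 bases in common, was at 0.03. Differences between these genes were not tested, and the split of reads among them is uncertain. Trim30a and Trim30d shared the printed window and had log2 fold changes of -0.09 and 0.05. Of the 4 called members with a promoter in the table (Trim12a, Trim21, Trim25 and Trim37), 2 held an ISRE core. Among all 31 tested members with a promoter 9 held it (29%), and 4 genes are too few to compare with this share. Trim29, Trim33 and Trim36 were not in the table.

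Relatives and partners of the family were taken from lists, whose called genes stand beside 10.6% of all genes tested (4.66% higher and 5.94% lower). Of 6 tested TRIM relatives under other symbols, 1 was higher and 1 lower. Pml, the scaffold of nuclear bodies, rose from 82.7 ± 3.97 to 109.6 ± 8.95 CPM (SD, n = 3 each; log2 fold change 0.41 ± 0.08 SE, edgeR adjusted p = 0.00438). Mefv, which encodes the inflammasome sensor pyrin, fell from 16.0 ± 0.10 to 10.9 ± 2.20 CPM (-0.56 ± 0.15 SE, edgeR adjusted p = 0.0244), with an adjusted p of 0.0774 to 0.131 without any 1 of the control libraries or DB2313 replicate 2. Of 40 tested genes of RNA and DNA sensing, in which many TRIM substrates lie, 2 were higher and 1 lower, with a median log2 fold change of -0.00108. Mavs, the adaptor of the RNA sensors, rose from 47.0 ± 1.602 to 59.99 ± 2.38 CPM (0.35 ± 0.08 SE, edgeR adjusted p = 0.0102, but 0.0606 without control replicate 2 and 0.0800 without DB2313 replicate 2). Irf7 rose from 44.8 ± 4.76 to 59.97 ± 8.75 CPM (0.42 ± 0.11 SE, edgeR adjusted p = 0.0218, but 0.123 and 0.104 without control replicates 1 and 2). Irf5 fell from 417 ± 9.15 to 350.2 ± 17.7 CPM (-0.25 ± 0.07 SE, edgeR adjusted p = 0.0243, but 0.0730 to 0.179 without any 1 of the control libraries or DB2313 replicate 2, and 0.0930 with a replicate block).

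Of 24 tested genes of ubiquitin and its E1 and E2 enzymes, 1 was called, Rps27a, one of the genes that encode ubiquitin, at 268 ± 22.3 CPM in control and 576 ± 192 with DB2313 (log2 fold change 1.10 ± 0.17 SE, edgeR adjusted p = 7.1e-04). Copies of Rps27a elsewhere in the genome were not examined here. The ISG15 system attaches a ubiquitin-like protein to targets, and Trim25 is also known to transfer ISG15. Of its 5 tested genes, 2 were called, both higher, beside 4.66% of all genes tested that were called higher. Ube2l6, the E2 enzyme for ISG15, rose from 99.4 ± 4.41 to 204 ± 18.4 CPM (1.04 ± 0.08 SE, edgeR adjusted p = 1.3e-06), and Isg15 rose from 17.7 ± 2.02 to 28.7 ± 4.14 CPM (0.70 ± 0.13 SE, edgeR adjusted p = 0.00212). Both calls held without any 1 library. The list was mixed, as Usp18, named because of its values, lay below control without overlap. It was at 44.3 ± 0.80 CPM in control and 36.3 ± 2.98 with DB2313 (-0.29 ± 0.09 SE, edgeR adjusted p = 0.0548). Uba7 and Herc6 overlapped between the groups. Of 15 tested genes of interferon receptors and their signalling, 2 were higher and 2 lower, with log2 fold changes between -0.26 and 0.38 over the list.

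Of 18 tested partners of the TIF1 group, 2 were higher and 1 lower. Chd3, a remodeller that Trim28 recruits, rose from 56.9 ± 0.63 to 113.9 ± 11.8 CPM (1.00 ± 0.09 SE, edgeR adjusted p = 3.4e-06). Uhrf1, which guides maintenance DNA methylation, rose from 85.9 ± 3.96 to 106 ± 4.95 CPM (0.31 ± 0.08 SE, edgeR adjusted p = 0.0168, but 0.0637, 0.101 and 0.118 without control replicate 1, control replicate 2 and DB2313 replicate 2). Atf7ip, a cofactor of the histone methyltransferase SETDB1, fell from 95.1 ± 3.95 to 74.3 ± 2.57 CPM (-0.36 ± 0.08 SE, edgeR adjusted p = 0.0063). Its adjusted p was 0.124 with the length offset, 0.145 with that offset and a replicate block, 0.0561 without control replicate 2 and 0.0617 without DB2313 replicate 2.

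Markers of other cells moved with the groups in part, and over all genes tested 10.6% were called. Of 8 neutrophil markers 2 were higher with DB2313 (Mmp8 and Ly6g), and the sum of the list was 4570 to 5028 CPM in control and 4922 to 6133 CPM with DB2313. Of 9 tested dendritic cell markers 2 were lower (Itgax and Batf3), with sums of 10332 to 10570 CPM and 8763 to 10388 CPM. Of 7 tested macrophage markers 1 was higher and 2 were lower, with sums of 1307 to 1380 CPM and 1085 to 1342 CPM, and of 6 mast cell or basophil markers 1 was higher, with sums of 2374 to 2568 CPM and 2397 to 2895 CPM. The 6 T cell markers, with log2 fold changes of 0.00469 to 0.36 that did not pass the test, summed to 134 to 162 CPM and 137 to 199 CPM. The sums of the B cell, natural killer cell, erythroid and fibroblast lists stayed at or under 25.3 CPM, and that of the plasmacytoid list at or under 15.2 CPM, with Ms4a1, Hbb-bs and Siglech near 0. The part of such cells in the changes of the TRIM genes was not tested.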

How the data were processed

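The table deposited by the authors holds unnormalised counts of reads for each gene, with 1 column per library, and gene lengths. The submitters' processing notes name CASAVA 1.8, HISAT2 2.0.5 and featureCounts 1.5.0-p3, whereas the methods of the study name LifeScope for alignment and counting. The build, the strandedness and the treatment of multiply matching reads are not given in the sources used here. Of the deposited genes, 98.3% had the same start and end in GENCODE M21, so coordinates are given as GRCm38. Groups came from the treatment in the labels, and columns were matched to samples by name and number.

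The groups were compared over all genes with the quasi-likelihood test of edgeR 4.0.16 (R 4.3.3; TMM scaling, filterByExpr, group as the only term, two-sided), with Benjamini-Hochberg adjustment over the 14174 genes tested. A gene was called at an adjusted p under 0.05. The biological coefficient of variation was 9.66%. Tested on simulated data for this comparison, 88.1% of 194 genes changed 2-fold were recovered among 14197, with 11 false calls. The simulation gave every gene the same biological coefficient of variation and held no trend with gene length. It therefore does not tell how well smaller changes, such as those of most members, are recovered, nor the rate of false calls in these libraries. Reads carry no molecular identifiers, and errors are the spread between libraries. The members, the lists and the rule for naming genes (all called members, a set of members of known role, the 3 with the highest level per length, and called genes of the other lists) were chosen with earlier results of these data known, and the lists were written from general knowledge. Genes of the interferon receptor list are given as counts. Copies were searched with blastn 2.17.0 (minimum of 95% identity over 100 bp).

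The alternatives were DESeq2 size factors, library totals, a minimum mean of 10 counts or no filter, DESeq2 1.42.0, limma-voom (limma 3.58.1), a gene length offset (lowess with a span of 0.3), a block for the replicate number, block and length offset jointly, summed copies and the omission of each library. Replicates of a group differed by more than sampling noise (chi-square per degree of freedom of 4.77 to 17.7), so none was counted as a duplicate. Protein sequences were not used here.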

Additional observations from a re-analysis of the deposited data

How the results depend on the processing

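The 5 members called higher became 1 to 6 and the 2 called lower became 0 to 2 when single libraries were left out, and for all genes the counts became 328 to 1097 higher and 411 to 1311 lower. Replicate numbers did not pair the libraries (correlations of the deviations of 0.00351, -0.0238 and -0.121). In the fit with the replicate block, 3 members were higher, as Trim25 (adjusted p = 0.0909) and Trim33 (0.104) were no longer past the threshold. Without a filter Trim33 was lost (0.0512) and Trim34b was called (log2 fold change 2.21, edgeR adjusted p = 8.3e-04). Trim34b was also called at a mean of at least 10 counts (2.20, 0.0344) and without DB2313 replicate 2 (2.65, 0.0114). Trim34a passed without DB2313 replicate 1, and so did the sum of Trim34a and Trim34b counts over all libraries.

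None of the called members changed sign in any alternative. Of the 27 tested members of the naming rule, 10 changed sign in at least 1 alternative, and all 10 were not called. With single libraries left out, their log2 fold changes ranged from -0.24 to 0.0066 for Trim56, -0.047 to 0.34 for Trim30b, -0.0198 to 0.14 for Trim27, -0.00282 to 0.10 for Trim28, -0.041 to 0.10 for Trim30d, -0.0464 to 0.096 for Trim59, -0.0126 to 0.13 for Trim12c, -0.21 to 0.14 for Trim14, -0.30 to 0.37 for Trim30c and -0.099 to 0.093 for Trim32. The summed Trim30 counts gave -0.038, against positive values for Trim30b, Trim30c and Trim30d. Trim30c was at -0.0200 with limma-voom and at -0.0290 with the replicate block and length offset, and Trim32 at 0.0178 with library totals and 0.00334 without a filter. The cause of these changes was not tested. Of the other 15 tested members, 6 also changed sign (Trim11, Trim41, Trim3, Trim39, Trim47 and Trim43c), and the 15 stayed short of the threshold in the alternatives run for them. Over the 27 members of the naming rule, 366 values kept direction and side of the threshold, 23 lost it, 3 gained it and 20 changed sign. These values include the sums of copies, where the same summed value was set against each tested copy. Low counts limit the precision for Trim29 and Trim34b.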
